A study of Mus musculus with 12 samples.

Results

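Of the 10013 regions of RNA enriched in the HP1γ immunoprecipitate of untreated cells, 3328 stood alone in the genome and had no counterpart after PMA. They were taken from the deposited untreated list by 2 conditions: no base shared with any of the 2609 regions of the PMA list (84.5% of untreated regions), and more than 10 kb from edge to edge to the nearest other untreated region (36.3%). Both held for 33.2% (exact 95% interval 32.3 to 34.2), which covered 1.69 Mb. Below, an untreated region is called isolated or grouped by the 10 kb condition, and a PMA region that overlaps it is its partner. The other classes were 308 isolated regions with a partner, 5130 grouped regions without one and 1247 grouped regions with one. Drawn from regions with at least 3 joined single-replicate peaks (member peaks) left without untreated replicate 1, 2 or 3, the class had 689, 979 or 1111 regions. Isolation was taken anew in these shorter lists. Only 315, 503 or 602 of the 3328 keep 3 member peaks there, so the rest are regions that were grouped in the full list. Because the 2 conditions that define the class use both lists, the number of regions chosen is not itself a finding.

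HP1γ, encoded by Cbx3, belongs to the heterochromatin protein 1 family, whose members bind methylated histone H3 through a chromodomain and pair through a chromoshadow domain. A flexible hinge between these domains can contact RNA. HP1γ is found in silent chromatin but also along transcribed genes, where it has been linked to the splicing of nascent transcripts. Phorbol 12-myristate 13-acetate (PMA) mimics diacylglycerol and activates protein kinase C, which sets off rapid changes in transcription.

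The libraries came from cells derived from mouse embryonic fibroblasts (MEFs) that lacked HP1γ and were recomplemented for its expression, so that every group analysed carries the restored protein in a knock-out background. They form 4 groups of 3 replicates: chromatin-enriched input RNA and RNA from the HP1γ immunoprecipitate (IP), each without treatment and with 100 nM PMA in DMSO for 30 min. The labels name no DMSO-only group, and whether replicates came from 1 clone is not given in the sources used here. No mock IP is among the groups, so recovery that does not depend on HP1γ cannot be told apart from association with it.

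For each region the lists give 1 fold enrichment (IP divided by input), 1 −log10 q and 1 pair of bounds per region, as the authors deposited them, and no values by library. There is therefore no spread between replicates for any region, and read depth is unknown. Each region also names the single-replicate peaks joined in it, the member peaks. No region had fewer than 3. In the untreated list these come from replicates 1, 2 and 3, and in the PMA list from replicates 2 and 3 only. A missing PMA partner can thus not be read as a measured loss of RNA. All values below describe the lists. No test was run between classes, because their folds and q values come from the comparisons that chose them and because regions are not replicates. Intervals cover counting error only. Positions are 1-based and in mm9, which the submitters' processing notes name. Genes of that build were not used here, so regions are given by position, without gene, exon or intron, and fibroblast marker genes were not checked.

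Isolated regions without a partner were the narrowest of the classes. Their median width was 480 bp (95% interval of the median 472 to 487), with an interquartile range of 377 to 599 bp and extremes of 163 to 1568 bp. Grouped regions without a partner had a median of 527 bp (519 to 533). Regions with a partner were wider, at 648 bp (596 to 691) when isolated and 729 bp (705 to 751) when grouped. None of the 100 widest untreated regions was isolated and without a partner. Width is tied to the rule, because a wider region has more bases that a PMA region can share.

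Their enrichment was high for their width, while their q values were weak. The median fold was 3.80 (3.76 to 3.84), close to the 3.82 (3.73 to 3.97) of isolated regions with a partner. Grouped regions lay lower, at 3.55 (3.51 to 3.58) without and 3.58 (3.54 to 3.65) with a partner. By −log10 q the isolated regions without a partner had the lowest median, 3.29 (3.22 to 3.38). It was 3.66 (3.59 to 3.74) in grouped regions without a partner, 3.71 (3.37 to 3.94) in isolated regions with one and 4.12 (3.96 to 4.26) in grouped regions with one. A mean −log10 q of at least 3, the value for a q of 0.001, was reached by 57.2% of the isolated regions without a partner. In the whole untreated list it was reached by 63.5%. In 141 of the isolated regions without a partner (4.24%) the mean −log10 q was below the value for a q of 0.05, against 3.34% of the list.

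**Figure D1:**
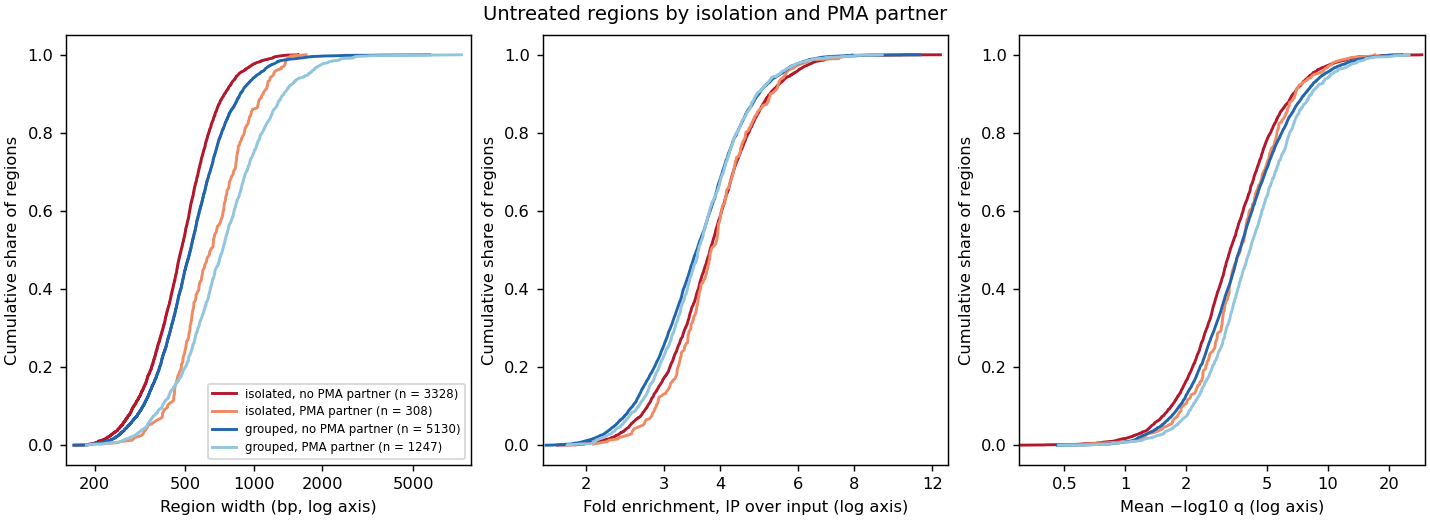
Cumulative shares of untreated regions by width in bp (left), fold enrichment of IP over input (middle) and mean −log10 q (right), each on a log axis, with 1 curve for each of the 4 classes. Isolated regions without a PMA partner (red, 3328 regions) are shifted to smaller widths, with a median of 480 bp, and to smaller −log10 q, with a median of 3.29, but by fold they lie with the isolated regions that have a partner.

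In each width quartile the median fold of isolated regions was above that of grouped ones, both with and without a partner. Within the narrowest quartile of the untreated list (162 to 408 bp) the median fold was 3.70 (3.62 to 3.79) for the 1073 isolated regions without a partner and 3.43 (3.38 to 3.49) for the 1262 grouped regions without one. In the widest quartile (687 to 8150 bp) these medians were 3.92 (3.83 to 4.06) and 3.66 (3.58 to 3.73). The intervals were also separate in both middle quartiles. Widths within the widest quartile are not alike, since the class ends at 1568 bp and grouped regions without a partner at 5919 bp. Isolated regions with a partner lay near those without one in each quartile, with overlapping intervals.

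Regions of this class were found throughout the range of strength. Of the 1000 untreated regions with the highest fold, 419 (41.9%, 38.8 to 45.0) were isolated and without a partner, and of the 1000 with the highest −log10 q, 246 (24.6%, 22.0 to 27.4). Over the quartiles of fold the share went from 25.7% in the lowest to 40.0% in the highest, and over those of −log10 q from 39.6% down to 26.4%. A fold of at least 6 was found in 133 of the 3328 (3.996%, 3.36 to 4.72) and in 112 of the 5130 grouped regions without a partner (2.18%, 1.80 to 2.62). With a partner, such folds were found in 9 of the 308 isolated regions (2.92%, 1.34 to 5.47), an interval that includes the share of the class. They were found in 27 of the 1247 grouped regions with a partner (2.17%, 1.43 to 3.13) and in 2.81% of the whole untreated list. A fold of at least 8 was found in 21 of the 10013 untreated regions. By class these were 0 of the 308, 4 of the 1247, 7 of the 5130 and 10 of the 3328.

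These 10 regions lay on 7 chromosomes, were 216 to 727 bp wide and each joined 1 member peak of every replicate. On chromosome 6, 216 bp (8727938 to 8728153) reached the top fold of 12.5, at a mean −log10 q of 20.8. Its nearest untreated neighbour was 107 kb away and the nearest PMA region 352 kb. Next came a 241 bp region on chromosome 11 (103273773 to 103274013) at 10.2, with a neighbour at 42.9 kb and a PMA region at 180 kb. A 683 bp region on chromosome 17 (22873486 to 22874168) also had a fold of 10.2, and the nearest PMA region was 1681 kb from it. A 727 bp region on chromosome 16 (11677130 to 11677856) followed at 9.65. Only a region on chromosome 10 (9577141 to 9577633), with a fold of 8.21, had a PMA region close by, at 2.14 kb, and the other 9 of the 10 lay at least 144 kb from one.

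Those of the 10 not yet named had folds of 8.07 to 8.67. A pair of them lay on chromosome 10 too, at 81510868 to 81511111 (fold 8.67) and 12226434 to 12226888 (8.07), so chromosome 10 held 3 of the 10. The region on chromosome 1 (24012059 to 24012458, fold 8.13) was the most remote from PMA regions, at 7898 kb. The remaining regions were on chromosome 11 (12243613 to 12243864, fold 8.41) and chromosome 2 (26188258 to 26188869, fold 8.34).

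Ranking by q brought other regions forward. The highest mean −log10 q, 29.1, belonged to 780 bp of chromosome 16 (32992002 to 32992781) at a fold of 7.06, which had an untreated neighbour at 20.1 kb and a PMA region at 20.5 kb. A 530 bp region on chromosome 17 (85357342 to 85357871) followed at 28.2, with a fold of 6.29. The fifth, on chromosome 13 (49022323 to 49022802), had a −log10 q of 20.3 and a fold of 5.99. The other two of the first 5 were the chromosome 17 and chromosome 6 regions with folds of 10.2 and 12.5.

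Every chromosome of the list had such a region with a fold of at least 5.50. The strongest on each was 214 to 827 bp wide, joined exactly 3 member peaks, and had a fold with a median of 7.68 over the 20 chromosomes. The lowest of these maxima was on the X (162917197 to 162917582, fold 5.50). On chromosome 14 the strongest region (73556526 to 73557352) had a fold of 7.31 and lay 12.0 kb from an untreated region and 14.2 kb from a PMA region. On chromosome 19 it lay 15.3 kb from a PMA region (38131319 to 38131801, fold 6.77). On chromosome 7 it was 7287 kb from one (96415124 to 96415695, fold 7.22).

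The lowest folds of the class lay above the minimum of the whole untreated list, 1.63. A 1122 bp region on chromosome 4 (150231179 to 150232300) had a fold of 1.73 over 5 member peaks, none of them from replicate 1. A region on chromosome 9 (21598938 to 21599331) also had 1.73, and another on chromosome 4 (126710751 to 126711414) had 1.89. The widest of the class, on chromosome 15 (8468182 to 8469749, 1568 bp), joined only 3 member peaks and had a fold of 5.30. The narrowest, on chromosome 12 (19656703 to 19656865, 163 bp), had a fold of 5.35. The most member peaks were the 8 of a 1151 bp region on chromosome 12 (117370647 to 117371797, fold 4.06).

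The distance to the next untreated region varied over nearly 3 orders of magnitude. Its median was 39.8 kb (37.5 to 42.0), its interquartile range 18.5 to 120 kb and its largest value 7272 kb. Within 10 to 20 kb were 937 of the 3328 regions (28.2%), within 20 to 50 kb 947, within 50 to 100 kb 500 and within 100 kb to 1 Mb 865. The remaining 79 had no other untreated region within 1 Mb. The most remote, 310 bp wide, was on the X (83034241 to 83034550), with a fold of 3.63, and after it came one of 537 bp on chromosome 18 (89274192 to 89274728), with a fold of 4.72 and a gap of 4543 kb.

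The regions nearest the 10 kb threshold are given by their values. The smallest gap inside was the 10035 bp between a pair on chromosome 10 (69423522 to 69423923 and 69433959 to 69434420), with folds of 4.84 and 4.29. The next was 10044 bp, on chromosome 18 (84240843 to 84241131, fold 3.58). Just outside was a pair on chromosome 17 (46253444 to 46253842 and 46263838 to 46264586), 9995 bp apart, with folds of 4.05 and 4.16. A region on chromosome 1 (168337471 to 168338194, fold 4.74) came next at 9988 bp. The regions inside were 402, 462 and 289 bp wide and lay 45.6, 56.04 and 3300.1 kb from a PMA region. Those outside were 399, 749 and 724 bp wide, at 8.87, 0.616 and 1758 kb.

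With a wider gap, regions without a partner had higher folds and lower −log10 q. From gaps of at most 1 kb to gaps over 1 Mb, the median fold went from 3.41 (3.35 to 3.47) through 3.60, 3.68, 3.79, 3.87 and 3.89 to 3.94 (3.63 to 4.09). The median −log10 q went from 3.92 (3.79 to 4.06) down to 2.96 (2.55 to 3.81). Among isolated regions alone, the folds at 10 to 20 kb (3.60 to 3.76) and at 100 kb to 1 Mb (3.81 to 3.97) had separate intervals. Median width was lower at wider gaps, from 561 bp (544 to 575) at gaps of at most 1 kb through 501 bp (486 to 513) at 10 to 20 kb to 467 bp (453 to 481) at 100 kb to 1 Mb, and was 479 bp (442 to 526) beyond 1 Mb.

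Isolation and overlap with the PMA list are the values that chose the class, so their joint counts are given as a description only. Of 3636 isolated regions 308 had a partner (8.47%, 7.59 to 9.42), and of 6377 grouped regions 1247 (19.6%, 18.6 to 20.5). The share was 27.0% (25.2 to 28.9) at gaps of at most 1 kb and 15.4% (14.3 to 16.6) at 1 to 10 kb. Beyond 10 kb it was 9.21% at 10 to 20 kb, 8.68% at 20 to 50 kb, 7.92% at 50 to 100 kb, 7.68% at 100 kb to 1 Mb and 9.20% (4.05 to 17.3) beyond 1 Mb, with overlapping intervals. Neighbouring regions of a group can overlap the same PMA region, so grouped regions are not independent of each other.

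**Figure D2:**
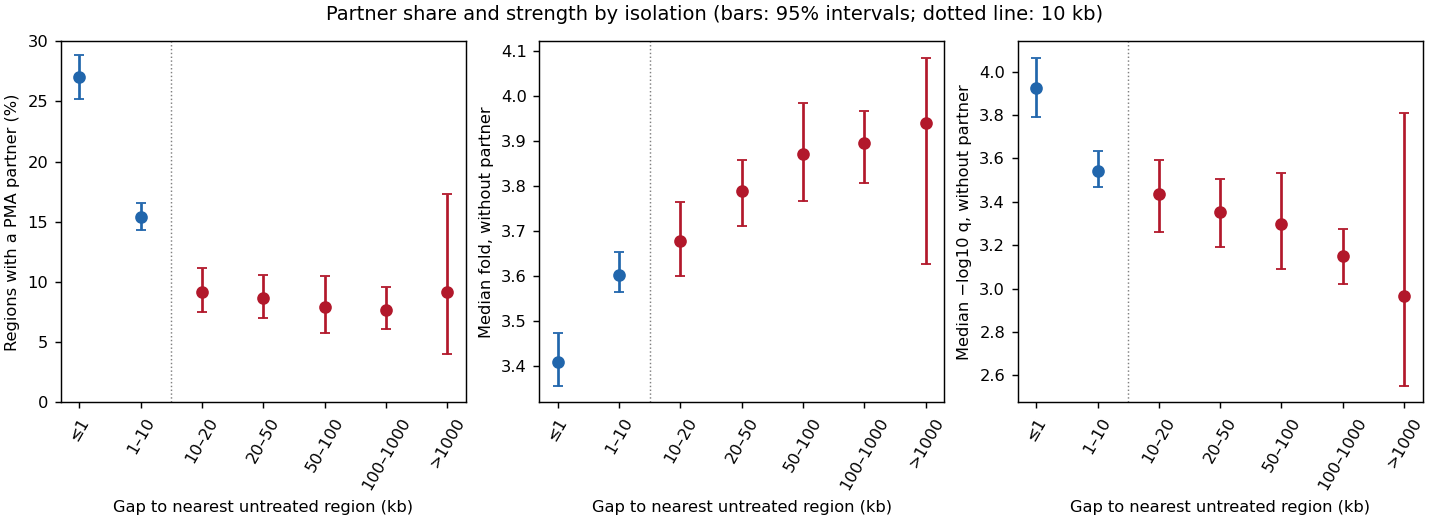
Untreated regions by their gap to the nearest other untreated region, in kb. Left, the share with a PMA partner, which goes from 27.0% at gaps of at most 1 kb to between 7.68% and 9.21% beyond 10 kb; middle and right, median fold and median −log10 q of the regions without a partner. Bars are 95% intervals, red points are isolated and blue points grouped regions.

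By width, the shares were as follows. In the narrowest quartile 2.54% (1.70 to 3.65) of isolated and 10.0% (8.53 to 11.7) of grouped regions had a partner. In the second quartile the shares were 6.47% (5.05 to 8.14) and 10.4% (8.91 to 12.1), in the third 8.43% (6.69 to 10.4) and 17.1% (15.3 to 19.04), and in the widest 22.7% (19.4 to 26.2) and 35.7% (33.6 to 38.0). Among regions with exactly 1 member peak per replicate, a partner was found for 6.43% (5.53 to 7.42) of 2691 isolated and 13.8% (12.8 to 14.9) of 4312 grouped regions. With a mean q of at most 0.001, the shares were 10.1% (8.81 to 11.4) and 21.8% (20.6 to 23.1).

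**Figure D3:**
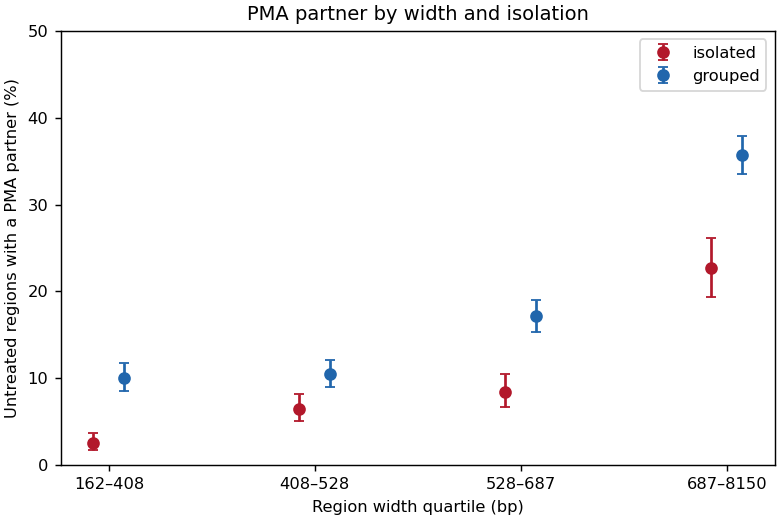
Share of untreated regions with an overlapping PMA region over the quartiles of region width in bp, for isolated (red) and grouped (blue) regions, with exact 95% intervals as bars. In every quartile the isolated regions lie below the grouped ones, from 2.54% against 10.0% in the narrowest to 22.7% against 35.7% in the widest.

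Most of these regions rested on a single peak from each replicate. Member peaks of all 3 replicates were present in 3026 of the 3328 regions (90.9%, 89.9 to 91.9), near the 92.3% (91.5 to 93.0) of grouped regions without a partner. Replicate 1 was absent from 51 regions, replicate 2 from 106 and replicate 3 from 145. Exactly 1 member peak from each replicate made up 2518 regions (75.7%, 74.2 to 77.1). That composition was found in 72.5% (71.2 to 73.7) of grouped regions without a partner and 69.9% of the whole list. It was found in 56.2% (50.4 to 61.8) of isolated and 47.7% (44.9 to 50.5) of grouped regions with a partner. A region called once in each of 2 replicates could not have entered a list built like the PMA list, from 2 replicates and at least 3 member peaks.

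With 1 untreated replicate left out, most untreated regions of any class no longer had 3 member peaks. At least 3 member peaks remained in 315 of the 3328 without replicate 1 (9.47%, 8.49 to 10.5), in 503 without replicate 2 (15.1%, 13.9 to 16.4) and in 602 without replicate 3 (18.1%, 16.8 to 19.4). In the whole untreated list these shares were 15.03%, 19.9% and 23.6%, and in grouped regions without a partner 13.2%, 17.5% and 21.5%. For isolated regions with a partner they were 27.6% (22.7 to 33.0), 30.5% (25.4 to 36.0) and 34.7% (29.4 to 40.3). Regions with a partner thus had higher shares than both classes without one. The part of this in the missing partners was not tested.

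The gaps around these regions in the list were seldom empty of called peaks, though whether any lay within 10 kb of a region is not known. Within a replicate, peaks are numbered in genome order, with 0 steps back over the lists, so the numbers skipped between neighbouring regions give the peaks called there but not kept. In the gaps on both sides of an isolated region without a partner, replicate 1 had a median of 21 further peaks (interquartile range 12 to 35), replicate 2 a median of 8 (5 to 13) and replicate 3 a median of 6 (4 to 10). No further peak was found in 7 of 3159 regions with both gaps known in replicate 1 (0.222%), in 29 of 3012 in replicate 2 (0.963%) and in 55 of 2915 in replicate 3 (1.89%). Of the 2513 regions with both gaps known in all replicates, none lacked further peaks in all of them.

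These further peaks were also counted per Mb of gap. Gaps beside isolated regions without a partner held 26.8, 10.1 and 7.87 peaks per Mb in replicates 1, 2 and 3. Other gaps over 10 kb held 35.2, 14.4 and 11.1. Gaps of at most 10 kb held 345, 215 and 127, but the rule itself sets them apart by length. The highest peak number over the span of the lists corresponds to 34.3, 16.0 and 13.1 per Mb. Gaps of 10 to 100 kb beside these regions held 168, 85.3 and 57.8 per Mb, and gaps over 1 Mb 10.5, 3.35 and 3.03. Positions of these peaks are not in the lists, so how near they came to a region is not known.

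The same count was made for PMA. Between the nearest PMA regions on either side of an isolated region without a partner, PMA replicate 2 had a median of 36 further called peaks (35 to 37) and replicate 3 a median of 73 (71 to 76). This could be counted for 3231 regions, which lay in 1174 such intervals, 424 of them with a single one of these regions and the fullest with 16. The other 97 lay beyond the first or last PMA region of their chromosome. In none of the 3231 were both replicates without a further peak (exact 95% upper bound 0.114%, which takes the regions as independent although they share intervals). A peak called at the place of the region and dropped on joining thus remained possible for each of the 3231, and whether there was one cannot be told apart from other peaks of the interval.

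**Figure D4:**
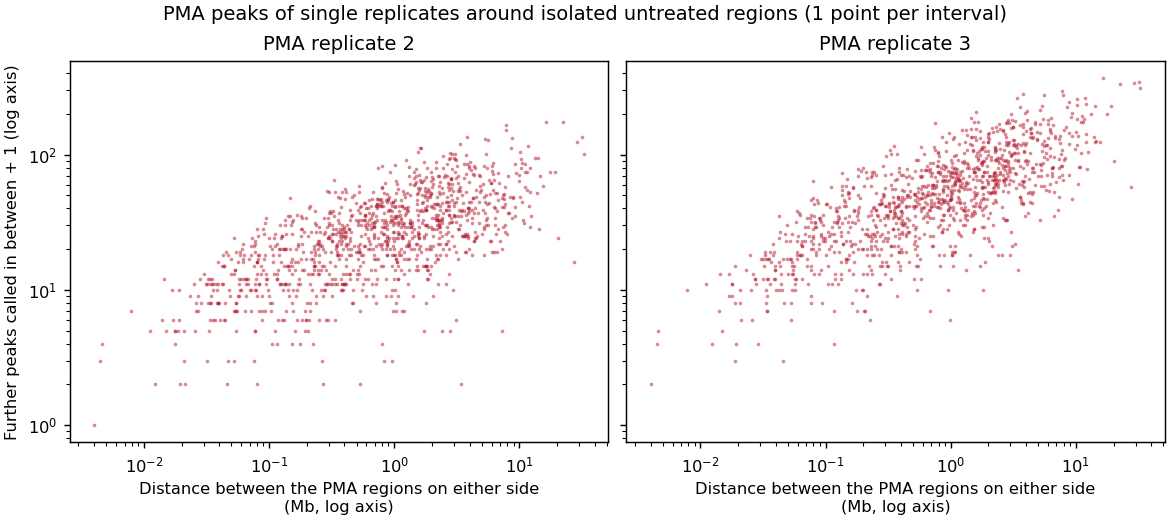
Further peaks called in PMA replicate 2 (left) and PMA replicate 3 (right) between the PMA regions on either side of isolated untreated regions without a partner, against the distance between those PMA regions, with both axes logarithmic and 1 added to the count. Each point is 1 of 1174 intervals; a single interval, the narrowest at lower left, has no further peak in replicate 2, and it has 1 in replicate 3.

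The intervals with the fewest PMA peaks left the least room. In the narrowest, a 277 bp region on chromosome 5 (104212925 to 104213201, fold 2.73) lay 47 bp from a PMA region, with no further peak of replicate 2 and 1 of replicate 3. A 446 bp region on chromosome 7 (52029818 to 52030263) had 1 and 2 further PMA peaks around it, a fold of 6.44 and a PMA region at 0.732 kb. A 462 bp region on chromosome 11 (105781338 to 105781799, fold 4.11) had 1 and 3. These were chosen after their values were seen. Per Mb, all intervals with such regions held 16.0 and 32.2 further PMA peaks in replicates 2 and 3, and those without any 33.6 and 56.02. In intervals of at most 100 kb these values were 192 and 329 with such regions and 274 and 394 without, at median lengths of 53.6 and 7.14 kb. In those over 100 kb they were 15.3 and 31.1 with and 15.9 and 31.01 without, at median lengths of 1071 and 434 kb. Lengths thus still differed within these bounds, so the values are not set side by side at like lengths.

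Most isolated regions without a partner were far from the PMA list. The median distance to the nearest PMA region was 161 kb (148 to 175), against 15.3 kb (14.0 to 16.9) for grouped regions without a partner. The rule bears on this contrast and on the shares below. Of the 2609 PMA regions, 1431 (54.8%) overlap an untreated region, and the class lies more than 10 kb from every other untreated region. The distances are therefore a description only. Within 1 kb of a PMA region lay 44 (1.32%, 0.962 to 1.77), within 10 kb 240 (7.21%, 6.36 to 8.14) and within 100 kb 1368 (41.1%, 39.4 to 42.8). The share within 10 kb changed when a replicate was left out with at least 3 member peaks still required. It was 22.8%, 19.5% and 18.6% without untreated replicate 1, 2 or 3, where isolation was taken anew and 689, 979 and 1111 wider regions qualified. Only 315, 503 and 602 of the 3328 keep 3 member peaks there, so these shares describe in part other regions. Without PMA replicate 2 or 3 the share was 0.220% and 0.193%. Only 72 and 121 PMA regions were left there, so these low shares follow from the shorter PMA list. More than 1 Mb away were 505 (15.2%, 14.0 to 16.4), against 6.45% (5.80 to 7.16) of grouped regions without a partner. The farthest, at 14923 kb, was a 647 bp region on the X (50706725 to 50707371, fold 3.50), where 100 and 312 further peaks of PMA replicates 2 and 3 were called between the PMA regions on either side.

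The median fold was 3.69 (3.58 to 3.89) in the 240 regions within 10 kb of a PMA region, 3.79 (3.74 to 3.82) in the 2583 at 10 kb to 1 Mb and 3.94 (3.83 to 4.03) in the 505 beyond 1 Mb. Median widths were 497.5, 480 and 474 bp. The 232 PMA regions nearest to those 240 had a median fold of 3.41 (3.30 to 3.52), against 3.50 (3.46 to 3.53) in the whole PMA list. None of the 232 overlapped another untreated region, which the 10 kb condition largely fixes.

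A few regions missed a partner by less than their own width. On chromosome 6 a 631 bp region (5795138 to 5795768, fold 4.78) ended 24 bp before a 940 bp PMA region (5795793 to 5796732, fold 3.45). On chromosome 4 a 241 bp region (134826755 to 134826995, fold 2.98) began 26 bp after a PMA region with a fold of 3.30. Another on chromosome 4 (84320743 to 84320963) had a fold of 6.38, and the PMA region 75 bp away one of 2.75. On chromosome 14 the order was turned, with 3.79 in the untreated region (22259160 to 22259735) and 5.79 in the PMA region 48 bp away. On the other side of this threshold, and picked after their values were seen, isolated regions with the smallest overlap shared 19 bp (chromosome 6, 72299072 to 72299925, fold 3.44), 75 bp (chromosome 10, 69103227 to 69103846, fold 3.94) and 166 bp (chromosome 5, 145862100 to 145862731, fold 4.02). Folds of the lists come from separate comparisons with input, so these pairs show no measured change.

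Isolated regions without a partner were spread over all 20 chromosomes. On the autosomes there were 1.03 to 1.87 per Mb, taken from the first to the last region of either list, with the least on chromosome 16 and the most on chromosome 19, where all untreated regions ranged from 2.85 to 6.76 per Mb. The X held 59, or 0.368 per Mb, against 1.37 per Mb over the autosomes. All untreated regions were sparse on the X too, with 150, or 0.935 per Mb, against 4.13 per Mb over the autosomes. The X made up 1.77% (1.35 to 2.28) of the 3328.

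The share of a chromosome's untreated regions that were isolated and without a partner varied nonetheless. It was highest on chromosome 12, at 154 of 342 (45.0%, 39.7 to 50.5), and chromosome 13, at 154 of 357 (43.1%, 37.9 to 48.5). It was lowest on chromosome 14, at 126 of 535 (23.6%, 20.02 to 27.4), chromosome 17 (26.6%) and chromosome 10 (27.5%). On the X it was 39.3% (31.5 to 47.6), with an interval that includes the 33.2% of the whole list. A fixed 10 kb gap ties this share to how densely untreated regions lie. Chromosomes 12 and 13 had 2.92 and 3.06 untreated regions per Mb, and chromosomes 14, 17 and 10 had 4.66, 6.76 and 6.17. Chromosome 16, at 2.85 per Mb, had a share of 36.1%. The part of density was not tested. Among isolated regions only, the share with a partner went from 5.26% (1.96 to 11.1) on chromosome 19 to 11.9% (8.11 to 16.6) on chromosome 10, with overlapping intervals. Median folds by chromosome were 3.54 (3.39 to 3.78) on chromosome 10 to 3.93 (3.71 to 4.12) on chromosome 17.

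**Figure D5:**
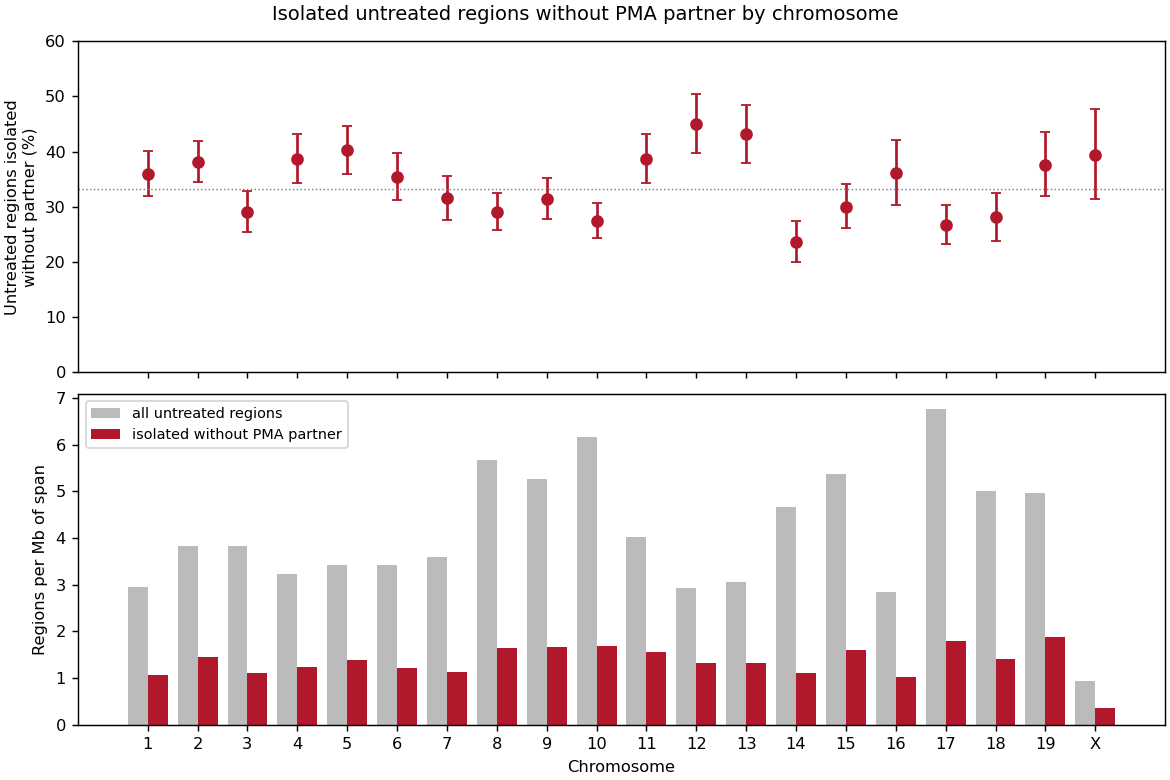
Top, the share of each chromosome's untreated regions that are isolated and without a PMA partner, with exact 95% intervals as bars and the share over the whole list, 33.2%, as a dotted line. Bottom, regions per Mb between the first and last region of a chromosome, for all untreated regions (grey) and those isolated without a partner (red), which range from 1.03 to 1.87 on autosomes and reach 0.368 on the X.

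The next untreated region on either side was of the same class in 4210 of 6634 cases (63.5%), where 33.2% of all untreated regions are of the class, and up to 21 stood in a row. Nothing is read from this share, since such a neighbour already has a gap over 10 kb on one side and so meets part of the rule. Of 1527 windows of 1 Mb with any untreated region, 1340 held at least 1 of these regions, 512 held no other kind and in 250 a single one was the only untreated region. The 10 fullest windows held 458 untreated regions, of which 38 were of this class.

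No window held more than 10 of them. On chromosome 13 (36151466 to 36601830) and chromosome 6 (93638507 to 93951716) all 10 untreated regions of a window were isolated and without a partner, with folds of 2.32 to 5.10 and 2.51 to 6.20. On chromosome 15 (34058492 to 34856212) they were 10 of 13, with folds of 2.55 to 5.52. Here regions more than 10 kb apart recurred along one stretch, at median folds of 3.26, 3.38 and 3.57 on chromosomes 13, 6 and 15.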

How the data were processed

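Chromatin input and HP1γ IP RNA was sequenced as stranded libraries, per the labels' protocols. MACS2 2.1.0, STAR 2.5.0a, cutadapt 1.11, deepTools, featureCounts 1.4.6-p3 and mm9 stand in the submitters' processing notes, without roles. How peaks were called and joined is not given in the sources used here. Joined regions were deposited by the authors with a fold (ratio of IP over input), −log10 p and −log10 q and a score, close to 10 times the −log10 p. In all 10013 untreated and 2609 PMA regions, the score times the number of member peaks is whole within 0.001, so values are read as the authors' means over member peaks.

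Members were found with Python 3.11.15, pandas 2.3.3 and numpy 2.4.6, and their number was checked with bedtools 2.31.1. Shares have exact Clopper-Pearson and medians order-statistic 95% intervals (scipy 1.17.1). The code was tested on simulated lists. The members, and the lists and rules here, were chosen with earlier results of these data known. Named regions are the highest by fold, −log10 q, width, member peaks, gap and distance to PMA, the strongest per chromosome, the lowest 3 by fold, and those at the threshold. Spans run from the first to the last region of either list. Gene context, sequence composition and gene lists were not analysed here.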

Additional observations from a re-analysis of the deposited data

How the results depend on the processing

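No paired analysis was possible because the lists hold no value per library. Of 78 alternative values for 6 results, 46 stayed within 1.5 times the number or within the 95% interval. Among these 46 is the share of regions with no PMA peak called between the flanking PMA regions, which was 0 in all 13 settings. Those intervals had a median length of 845 kb in the main setting. A share of 0 was thus nearly fixed in advance and is no sign of stability. Leaving out 1 untreated replicate, with at least 3 member peaks still required and isolation taken anew, gave 689 to 1111 isolated regions without a partner, median widths of 665 to 713 bp, median folds of 3.54 to 3.79 and 18.6% to 22.8% within 10 kb of a PMA region. These lists are shorter by their construction and keep the bounds and folds joined over all replicates. The regions counted in them include some that were grouped in the full list. The lowest number, 689, was without replicate 1, the next, 979, without replicate 2, and 1111 without replicate 3. Without PMA replicate 2 or 3 only 72 or 121 PMA regions were left, and 3631 or 3627 regions qualified, with a median width of 491 bp, a median fold of 3.80 in both and 0.220% or 0.193% within 10 kb of a PMA region. A gap over 50 kb left 1444 regions, at 468.5 bp, a fold of 3.89, 2.77% on the X and 4.50% within 10 kb of a PMA region. A gap over 20 kb gave 471 bp, 3.85 and 5.77%, and one over 5 kb 12.5% within 10 kb. With q of at most 0.001, the width was 511 bp, the fold 4.19, the X share 1.26% and the share within 10 kb 11.1%. Member peaks in every untreated replicate gave 470 bp, and merging within 1 kb 491 bp. Without PMA regions within 1 kb, 5.97% lay within 10 kb of one, and 0 by construction when none was allowed within 10 kb. Composition by sequence and gene context, planned for a genome of the same build, were not run. Depth is unknown, and values of single libraries would be needed to say which regions changed.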
